A study of Homo sapiens with 12 samples.

Results

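A set of 10 surface molecules that mark plasma cells or serve as targets or candidate targets of myeloma therapy were followed across the arrays of INA-6 cells treated with a Raf inhibitor or a MEK inhibitor. The 10 genes were SDC1 (CD138), CD38, TNFRSF17 (BCMA), TNFRSF13B (TACI), FCRL5, CD27, CD28, GPRC5D, CD44 and CD70, taken by name with every probe set that the platform annotation pairs with one of these symbols. They made up 10 of 19775 genes and 29 of 54613 probe sets. CD44 had 13 probe sets, FCRL5 had 5, CD28 had 3, SDC1 had 2, and the other 6 genes had 1 each.

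INA-6 is an established human myeloma line that depends on interleukin-6. All 3 groups were INA-6 cells grown with 2 ng/ml IL-6 and 10% fetal calf serum, so the cytokine was present in the controls as well. The groups were the solvent DMSO, SB590885 (a Raf inhibitor, labelled for B-Raf) and PD325901 (a MEK inhibitor), with 4 arrays each. The series describes them as biological replicates, all come from this 1 line, and doses and treatment times were not given in the sources used here. RNA was measured on Affymetrix HG-U133 Plus 2.0 arrays, so a value is a log2 mRNA signal and not the amount of protein on the cell surface.

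SDC1 carries heparan sulfate chains and is the classical surface marker of plasma cells. TNFRSF17 and TNFRSF13B are receptors of the cytokines BAFF and APRIL, which sustain plasma cells, and TNFRSF17 is cleaved from the surface by gamma-secretase. CD38 is an ectoenzyme that consumes NAD, FCRL5 is an immunoglobulin-like receptor of B cells and plasma cells, and GPRC5D is an orphan receptor of the G protein-coupled class. CD27 is a receptor of lymphocytes whose ligand is CD70, CD28 is a costimulatory receptor best known from T cells, and CD44 is an adhesion receptor for hyaluronan. CD38, TNFRSF17 and GPRC5D are targets of antibodies or engineered T cells in the clinic.

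A second label numbers arrays 1 and 2 of each group 1 and 2, and arrays 3 and 4 of each group 1R and 2R. The sources used here do not explain the R, and whether arrays 3 and 4 repeat arrays 1 and 2 is not stated. Differences are therefore also given within the unmarked and the marked arrays. Same-numbered arrays of different groups deviated from their group means together, so a second fit used the replicate number as a block, called the paired fit below. Array 2 of the DMSO group and array 2 of the PD325901 group stood apart. The median of 16 interferon response genes was 11.42 and 11.12 on them, against 6.82 to 7.80 on the other 10 arrays (the 16 genes were listed after the values were seen). Of 5 genes that report ERK activity, 3 were called lower with SB590885 and 5 with PD325901 in the fit without the block. Of all genes 1.69% and 0.506% were. The 5 differences with SB590885 ran from -1.21 to -0.34, and the paired fit called 5 lower there, where 9.84% of all genes were. DUSP6, an ERK phosphatase, changed by -0.97 with SB590885 (adjusted p = 0.00639) and by -2.64 with PD325901 (adjusted p = 4.6e-06, both limma). All 9 plasma cell markers lay above the median of all probe sets, 6.92, with JCHAIN at 13.95 and XBP1 at 12.80 under DMSO. The B cell marker MS4A1 (6.64), the T cell marker CD3E (6.97) and the monocyte marker CD14 (6.62) lay near that median. Others of these lists were higher under DMSO: CD79B (9.56) and PAX5 (7.72) of B cells, and TRAT1 (8.19) and CD8A (7.54) of T cells. By mean over the 12 arrays, 5 of 7 B cell, 5 of 8 T cell and 1 of 4 monocyte markers reached that median. Over all genes 315 were higher and 334 lower with SB590885 than with DMSO, a split that became 143 and 239 when each array was centred on its median. With PD325901 17 were higher and 100 lower, or 173 and 176 after quantile normalization. Between the inhibitors 389 were higher and 169 lower with SB590885, or 877 and 678 after quantile normalization.

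The promoters of 4 of the genes are shown because, of those with an entry, their mRNA differed most between groups or arrays, and because ERK acts on transcription in part through ETS and AP-1 factors. Each line is the 250 bases before the transcription start in RefSeq on GRCh38.p14, 5′ to 3′ on the strand of the gene. Positions are chr1:157552516-157552765 (minus strand) for FCRL5, chr11:35138921-35139170 (plus strand) for CD44, chr2:20225476-20225725 (minus strand) for the first of 2 listed starts of SDC1, and chr4:15778078-15778327 (plus strand) for CD38. Capitals mark matches to the ETS core GGAAGT on either strand.
FCRL5: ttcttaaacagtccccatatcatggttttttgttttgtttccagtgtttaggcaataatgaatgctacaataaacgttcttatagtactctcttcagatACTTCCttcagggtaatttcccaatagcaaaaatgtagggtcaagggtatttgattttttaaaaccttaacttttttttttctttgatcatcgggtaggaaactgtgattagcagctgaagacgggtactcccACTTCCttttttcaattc
CD44: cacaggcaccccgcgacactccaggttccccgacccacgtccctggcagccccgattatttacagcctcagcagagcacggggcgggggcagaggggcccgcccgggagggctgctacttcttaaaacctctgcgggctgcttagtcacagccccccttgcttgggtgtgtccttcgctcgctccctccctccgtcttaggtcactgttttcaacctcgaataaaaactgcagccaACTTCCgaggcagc
SDC1: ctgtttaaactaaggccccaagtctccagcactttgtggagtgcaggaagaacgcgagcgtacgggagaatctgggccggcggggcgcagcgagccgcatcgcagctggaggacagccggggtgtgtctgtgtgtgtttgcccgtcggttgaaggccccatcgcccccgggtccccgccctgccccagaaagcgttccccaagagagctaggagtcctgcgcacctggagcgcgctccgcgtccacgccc
CD38: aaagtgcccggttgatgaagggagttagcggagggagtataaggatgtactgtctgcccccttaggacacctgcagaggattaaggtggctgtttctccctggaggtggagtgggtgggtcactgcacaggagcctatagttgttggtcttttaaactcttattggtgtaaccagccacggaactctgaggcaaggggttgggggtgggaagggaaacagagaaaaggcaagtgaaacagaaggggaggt
The FCRL5 promoter held 2 ETS matches, at 151 and 18 bases before the start, and the CD44 promoter held 1 at 14 bases before it. The SDC1 and CD38 windows held none of the 3 motifs searched, which were this core, the AP-1 site TGANTCA and the interferon-stimulated response element. The ETS core occurred in 19.5% of 35114 RefSeq start windows of the same length, the AP-1 site in 6.57% and the interferon element in 3.02%, each counted on both strands. A match is a description of the letters and not evidence of binding. TNFRSF13B and CD27 also held an ETS match, 13 and 33 bases before the start, and CD27 an AP-1 match at 236 bases. Of the 10 genes 8 had an entry, and TNFRSF17 and CD70 are named only.

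**Figure D1:**
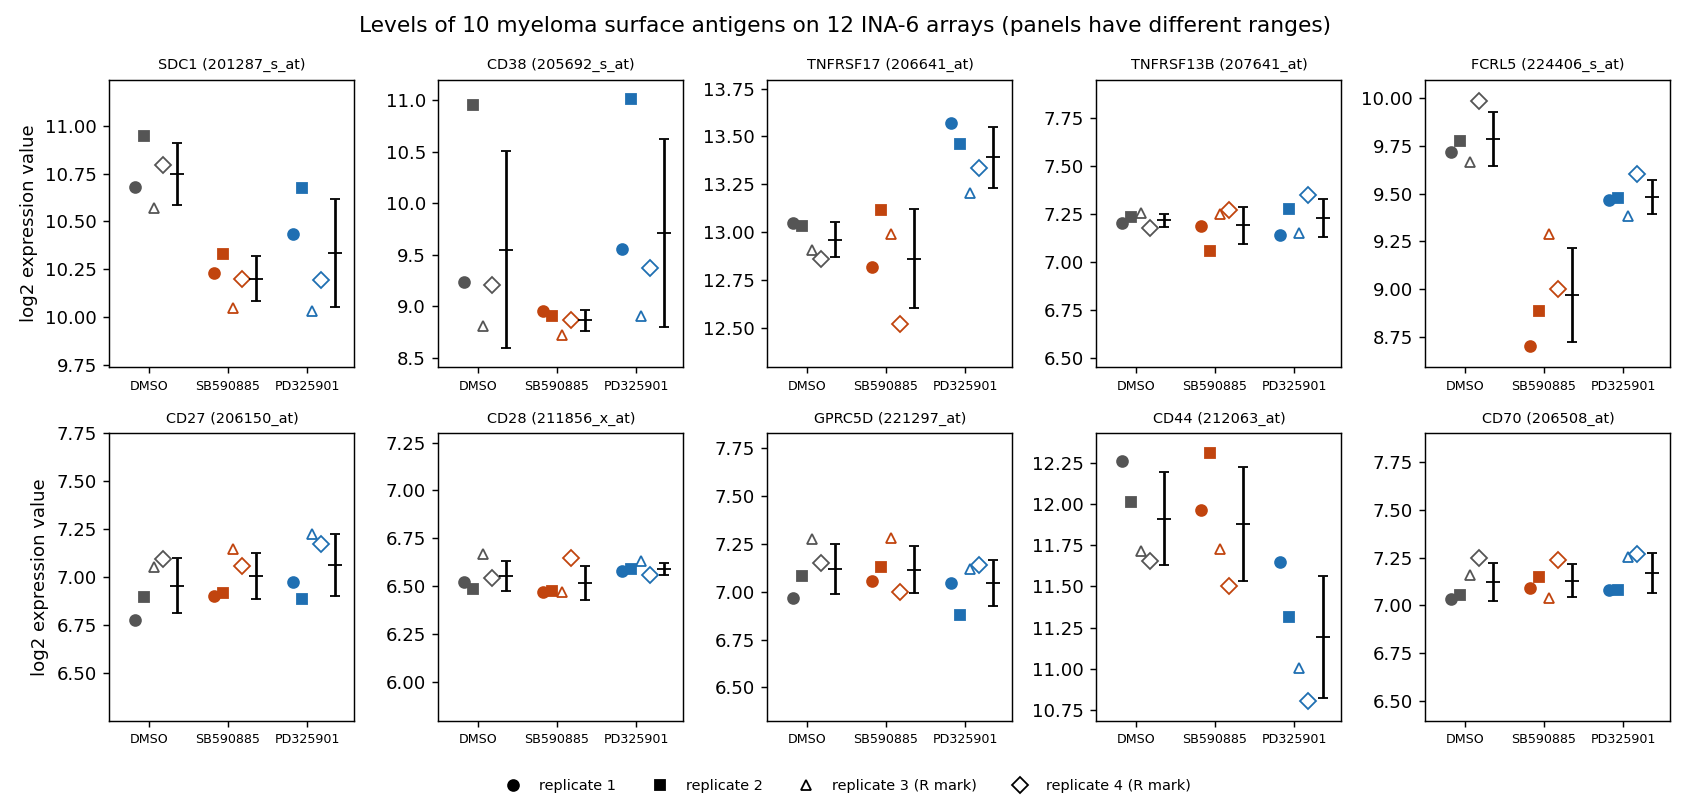
Log2 expression value of the representing probe set of each of the 10 genes on all 12 arrays, by group; marker shapes are replicates (open for the R mark), black bars are group means with SD (n = 4), and panels have different ranges. FCRL5 was lower on all 4 SB590885 arrays than on any DMSO array, and CD38 was high on array 2 of the DMSO and PD325901 groups.

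Of the 10 genes 5 gave a clear signal: SDC1, CD38, TNFRSF17, FCRL5 and CD44. The other 5 stayed between 6.47 and 7.35 on every array, around the median of all probe sets. With SB590885, SDC1 and FCRL5 fell (2 of 10 genes, 0 higher), where 3.28% of all genes were called in either direction and 1.69% were called lower. With PD325901 0 of 10 genes passed limma's adjusted p threshold of 0.05, against 0.592% of all genes, although 4 had an unadjusted p under 0.05. Between the inhibitors, TNFRSF17 and FCRL5 were lower with SB590885 than with PD325901 (2 of 10), where 2.82% of all genes were called and 0.855% were called lower. The 2 comparisons with DMSO share the same 4 DMSO arrays and are not independent of each other.

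The paired fit called more genes overall. With PD325901 it called 4 of 10 (SDC1, FCRL5 and CD44 lower, TNFRSF17 higher), against 8.14% of all genes in either direction, 6.18% lower and 1.96% higher. It called SDC1 and FCRL5 lower with SB590885 too, against 18.9% of all genes in either direction and 9.84% lower. Between the inhibitors it called 4 of 10 (CD44 higher with SB590885; TNFRSF17, FCRL5 and CD38 lower), against 18.1% in either direction, 12.4% higher and 5.73% lower. The 2 of 10 with SB590885 are thus about the background share of that fit. Groups did not overlap for SDC1 and FCRL5 with SB590885 (both lower, as were 5.76% of all genes). With PD325901 they did not overlap for CD44 and FCRL5 (lower, 2.68% of all genes) and TNFRSF17 (higher, 1.40%), and between the inhibitors for TNFRSF17 and FCRL5 (lower with SB590885, 2.50%). The median difference of the 10 genes was -0.04 with SB590885, 0.02 with PD325901 and -0.07 between the inhibitors, beside 0.0038, -0.0029 and 0.00046 over all genes.

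Over the 29 probe sets, 2 were called lower with SB590885 (1.96% of all probe sets called, 0.947% lower). With PD325901 6 were called lower (0.346% of all probe sets called, 0.291% lower). Between the inhibitors 8 were called (6 higher and 2 lower with SB590885). The 6 with PD325901 and the 6 higher between the inhibitors were all CD44 probe sets. Of all probe sets 1.78% were called between the inhibitors, 1.23% higher and 0.555% lower. The paired fit called 7, 12 and 14 of the 29, against 13.4%, 4.81% and 12.9% of all probe sets.

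**Figure D2:**
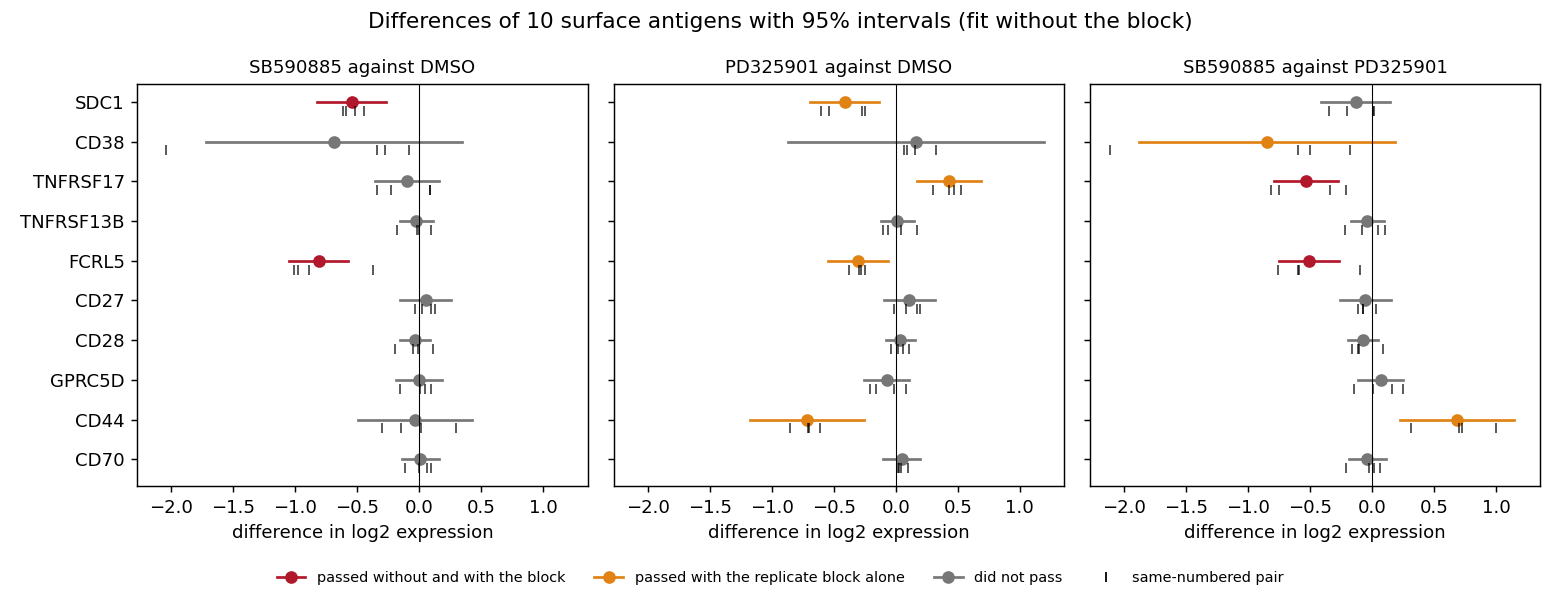
Difference in log2 expression of each of the 10 genes with its 95% interval from the fit without the block, in 1 panel per comparison; red passed with and without the block, orange with the block alone, grey in neither, and ticks are same-numbered pairs. FCRL5 (-0.81) and SDC1 (-0.55) passed with SB590885, and CD44 lay at -0.72 with PD325901 and at -0.04 with SB590885.

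FCRL5 showed the largest called change among the 10 genes in the main fit over genes. Its representing probe set (224406_s_at) read 9.71, 9.78, 9.67 and 9.98 on DMSO arrays 1 to 4. It read 8.71, 8.89, 9.29 and 9.00 with SB590885 and 9.47, 9.48, 9.38 and 9.60 with PD325901. Every SB590885 array lay below every array of the other groups, and every PD325901 array lay below every DMSO array. SB590885 lowered FCRL5 mRNA to 0.569 of its DMSO level (95% interval 0.481 to 0.672), a log2 difference of -0.81 (SE 0.11, limma adjusted p = 0.00381, n = 4 per group). Between same-numbered arrays it was lower in 4 of 4 pairs, by -1.01, -0.89, -0.38 and -0.98. The difference was -0.95 within the unmarked and -0.68 within the marked arrays. In RNA of a whole culture, fewer cells that carry an mRNA and less of it per cell cannot be told apart. With PD325901 the difference was -0.30 (95% interval -0.54 to -0.06), which did not pass in the main fit (limma adjusted p = 0.498) and passed narrowly in the paired fit over genes (adjusted p = 0.0499). In the paired fit over all probe sets the same set did not pass (adjusted p = 0.0656). The pairs gave -0.25, -0.30, -0.28 and -0.38, closely alike. FCRL5 was lower with SB590885 than with PD325901 by a log2 difference of -0.51 (SE 0.11, limma adjusted p = 0.0301). That call was lost without any single PD325901 array or without SB590885 array 1, 2 or 4 (adjusted p 0.0503 to 0.0995).

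Of the other 4 FCRL5 probe sets, 3 were lower than DMSO on average with both inhibitors. Probe set 224404_s_at read 9.30, 9.37, 8.89 and 9.32 with DMSO. It read 8.53, 9.04, 8.97 and 8.66 with SB590885, and 8.84, 8.87, 8.44 and 8.68 with PD325901. With PD325901 it differed from DMSO by -0.51, which passed in the paired fit (adjusted p = 0.0117) and not in the main fit (0.296). It was low with both inhibitors, and its difference between them was 0.09 (95% interval -0.21 to 0.40). With SB590885 the difference was -0.73 for 231647_s_at and -0.33 for 224405_at. Between the inhibitors 231647_s_at differed by -0.43, which passed in the paired fit alone (adjusted p = 0.0152, against 0.449 in the main fit). These 3 sets passed for SB590885 in the paired fit (adjusted p = 0.0157, 0.000407 and 0.00611) and not in the main fit over probe sets (0.195, 0.0990 and 0.219). The fifth set, 1555799_at, stayed between 6.59 and 6.85, below the median of all probe sets. With 224405_at as the only probe set of the gene, the SB590885 call was lost (adjusted p = 0.190). Without array 2 of every group its adjusted p was 0.0615.

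**Figure D3:**
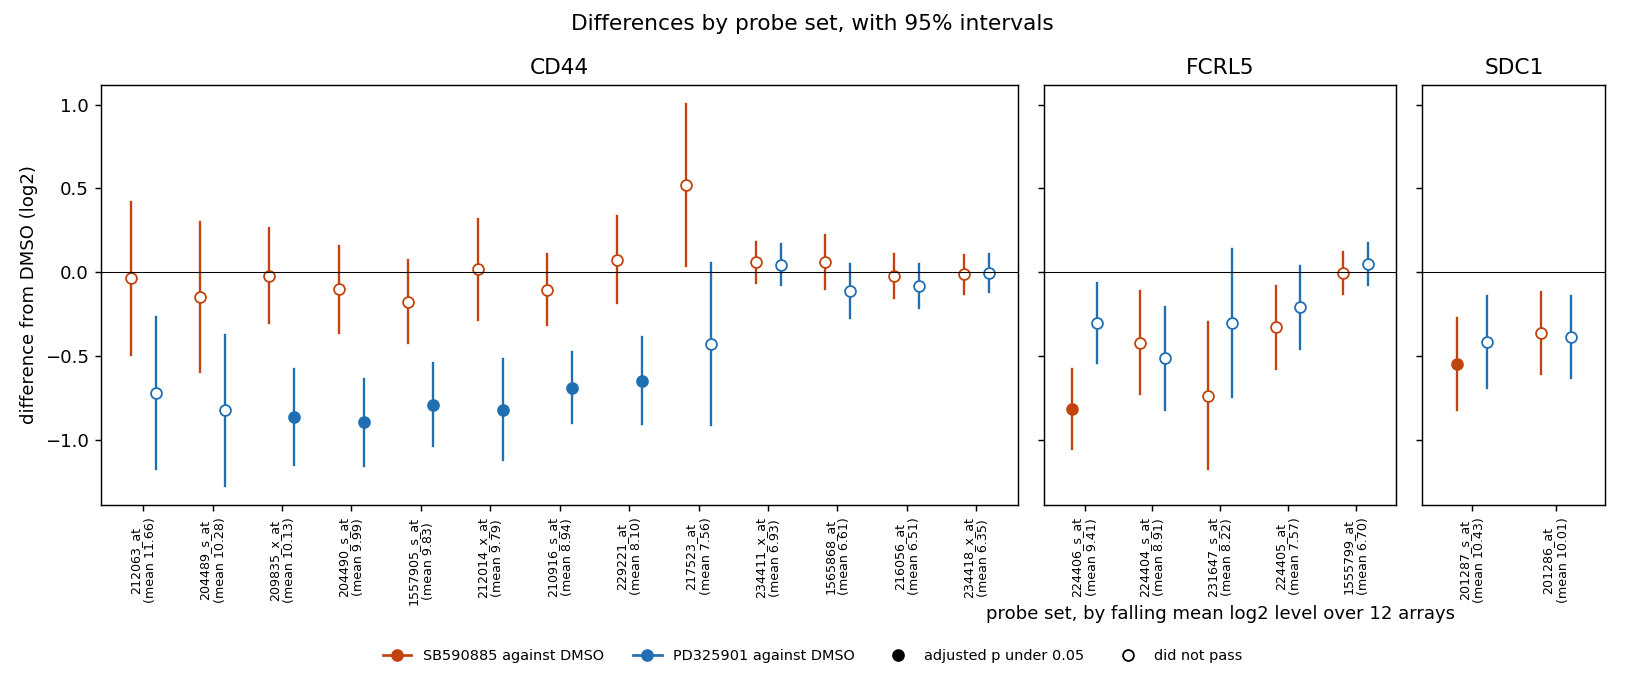
Difference from DMSO (log2, with 95% interval) of each probe set of CD44, FCRL5 and SDC1, ordered by falling mean level over 12 arrays, for SB590885 (orange) and PD325901 (blue); filled points passed an adjusted p of 0.05 in the fit over all probe sets. The 6 filled CD44 points lie between -0.89 and -0.64 with PD325901, and the dimmest CD44 and FCRL5 sets lie near 0.

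SDC1 mRNA fell with SB590885 and was also low with PD325901. Its representing probe set (201287_s_at) read 10.68, 10.95, 10.57 and 10.79 with DMSO. It read 10.23, 10.33, 10.05 and 10.20 with SB590885 and 10.44, 10.68, 10.03 and 10.19 with PD325901. The SB590885 arrays all lay below the DMSO arrays, whereas 1 PD325901 array (array 2) reached into the DMSO range. SB590885 lowered the level to 0.685 of DMSO (95% interval 0.565 to 0.830), a log2 difference of -0.55 (SE 0.13, limma adjusted p = 0.0398), lower in 4 of 4 pairs. The pairs were close together, between -0.45 and -0.62, and the paired fit gave an adjusted p of 4.86e-05. The main fit's call was lost without any single one of the 8 DMSO and SB590885 arrays (adjusted p 0.0518 to 0.112). It was also lost when arrays were centred on their medians and with a variance trend. The same held with 201286_at as the only probe set of the gene and without array 2 of every group. With PD325901 the difference was -0.41 (95% interval -0.69 to -0.14), which did not pass in the main fit (limma adjusted p = 0.309) and passed in the paired fit (adjusted p = 0.000921). It was -0.26 within the unmarked and -0.57 within the marked arrays. The inhibitors differed by -0.13 (95% interval -0.41 to 0.15, limma adjusted p = 0.837), which did not pass.

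The second SDC1 probe set (201286_at) gave smaller differences of the same sign. It read 10.09, 10.28, 10.11 and 10.56 with DMSO, 9.69, 10.00, 9.92 and 9.99 with SB590885, and 9.88, 10.04, 9.67 and 9.92 with PD325901. All 8 inhibitor arrays were below the DMSO arrays. Its differences of -0.36 with SB590885 and -0.38 with PD325901 passed in the paired fit (adjusted p = 0.00304 and 0.00568) and not in the main fit (0.155 and 0.368). The gap between 3′ and 5′ control probes of GAPDH, a measure of RNA integrity, was 0.371 ± 0.033 with DMSO, 0.440 ± 0.035 with SB590885 and 0.425 ± 0.057 with PD325901 (SD, n = 4). The same gap of ACTB was 1.58 ± 0.17 with DMSO, 1.65 ± 0.17 with SB590885 and 1.64 ± 0.10 with PD325901. By array the ACTB gap was 1.65 to 1.85 on the unmarked and 1.41 to 1.57 on the marked arrays. The part of RNA integrity in the FCRL5 and SDC1 differences, or in shifts with the R mark, was not tested.

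TNFRSF17 was high in every group and highest with the MEK inhibitor. Its only probe set (206641_at) read 13.05, 13.03, 12.91 and 12.86 with DMSO, 12.82, 13.12, 12.99 and 12.52 with SB590885, and 13.57, 13.46, 13.20 and 13.33 with PD325901. All PD325901 arrays exceeded all arrays of the other groups. Between the inhibitors TNFRSF17 was lower with SB590885, at 0.693 of the PD325901 level (95% interval 0.579 to 0.828), a log2 difference of -0.53 (SE 0.12, limma adjusted p = 0.0346) in 4 of 4 pairs. That call was lost without DMSO array 1 or 3, SB590885 array 1 or 4, or PD325901 array 1, 2 or 4 (adjusted p 0.0503 to 0.101), and the paired fit gave 0.000391. Against DMSO the level with PD325901 was 1.35 times as high (95% interval 1.13 to 1.61), a log2 difference of 0.43 that did not pass in the main fit (limma adjusted p = 0.216) and passed in the paired fit (adjusted p = 0.00506). The pairs gave 0.53, 0.43, 0.30 and 0.47, and the difference was 0.48 within the unmarked and 0.38 within the marked arrays. With SB590885 TNFRSF17 differed from DMSO by -0.10 (95% interval -0.36 to 0.16, limma adjusted p = 0.887), higher in 2 pairs and lower in 2.

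TNFRSF13B, the other receptor for BAFF and APRIL among the 10 genes, lay between 7.05 and 7.35 on all 12 arrays. Its differences were -0.03 with SB590885 (95% interval -0.16 to 0.11) and 0.01 with PD325901 (-0.12 to 0.14). Of 9 measured ligands, receptors and signal carriers of the BAFF and APRIL system, 0 passed with SB590885 in limma (3 passed in the paired fit: CAMLG and TRAF3 higher, TRAF5 lower). Of all genes 3.28% passed with SB590885 in the main fit and 18.9% in the paired fit. With PD325901 TRAF5, an adaptor of TNF receptors, fell by 0.41 (limma adjusted p = 0.0355) and the other 8 did not pass, where 0.592% of all genes did. TRAF5 was dim, at 7.29 with DMSO and 6.88 with PD325901, near the median of all probe sets. The median of the 9 was 0.08 with SB590885 and -0.0033 with PD325901. Of 11 measured genes for shedding and cleavage of surface proteins 0 passed in limma in either comparison with DMSO. The paired fit called 2 higher with SB590885 and 1 higher with PD325901, where it called 18.9% and 8.14% of all genes. In the paired fit ADAM17, a sheddase, was higher by 0.20 with SB590885 (adjusted p = 0.0139) and by 0.28 with PD325901 (adjusted p = 0.00444).

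CD44 mRNA was lower with the MEK inhibitor and near the DMSO level with the Raf inhibitor on its brighter probe sets. Probe set 204490_s_at read 10.57, 10.29, 10.22 and 10.18 with DMSO, 10.24, 10.43, 10.08 and 10.11 with SB590885, and 9.72, 9.43, 9.34 and 9.20 with PD325901. All PD325901 arrays were below all others, while DMSO and SB590885 arrays overlapped. In the fit over all probe sets it was lower with PD325901 by a log2 difference of -0.89, which is 0.539 of DMSO (SE 0.12, limma adjusted p = 0.00632). In that fit 6 of the 13 CD44 probe sets were called lower with PD325901, and 0 of the other 16 probe sets of the 10 genes passed. The background was 0.346% of all probe sets called in either direction and 0.291% called lower. The 6 differences ran from -0.89 to -0.64. Without DMSO array 1, DMSO array 2 or PD325901 array 3, 3 probe sets were called, and without array 2 of every group 0 were. With PD325901 9 of the 13 sets had every array below every DMSO array, where 2.16% of all probe sets did. The 13 sets measure 1 gene and partly overlap in sequence, so their agreement is not independent evidence.

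The brightest CD44 probe set (212063_at), which represents the gene in the fit over genes, varied more. It read 12.26, 12.01, 11.71 and 11.65 with DMSO, 11.96, 12.31, 11.73 and 11.50 with SB590885, and 11.65, 11.32, 11.00 and 10.80 with PD325901. The marked arrays 3 and 4 read lower in each group, 11.40 ± 0.40 against 11.92 ± 0.38 for the unmarked ones (SD, n = 6). With PD325901 the difference was -0.72 (95% interval -1.18 to -0.26), which did not pass in the main fit (limma adjusted p = 0.264) and passed in the paired fit (adjusted p = 8.46e-05). The pairs lay between -0.85 and -0.61, and the difference was -0.66 within the unmarked and -0.78 within the marked arrays. With SB590885 it was -0.04 (95% interval -0.49 to 0.42, limma adjusted p = 0.989). Between the inhibitors CD44 was higher with SB590885 by 0.68 (95% interval 0.22 to 1.14), which did not pass in the main fit (limma adjusted p = 0.128) and passed in the paired fit (adjusted p = 5.8e-05). In the main fit over probe sets 6 of 13 were called higher with SB590885 than with PD325901, where 1.23% of all probe sets were. The paired fit called 9 of 13 higher, where 8.83% of all probe sets were.

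Probe set 217523_at of CD44 departed from the others with SB590885. It read 7.67, 7.65, 7.68 and 7.14 with DMSO, 8.51, 8.51, 7.69 and 7.50 with SB590885, and 7.21, 7.15, 7.20 and 6.87 with PD325901. Arrays 1 and 2 of SB590885 were well above the rest. Its SB590885 difference of 0.52 did not pass in the main fit (limma adjusted p = 0.364) and passed in the paired fit (adjusted p = 0.00993). It was 0.85 within the unmarked and 0.19 within the marked arrays. A test of that gap did not pass over all probe sets (limma adjusted p = 0.388). The 4 dimmest CD44 sets, at or below 7.07 on every array (234411_x_at, 1565868_at, 216056_at and 234418_x_at) averaged 6.35 to 6.93.

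Partners of CD44 were read as a list of 13 measured hyaluronan enzymes, receptors, membrane linkers and splicing regulators. Against DMSO 0 of 13 passed with either inhibitor in limma, with medians of 0.02 for SB590885 and -0.0080 for PD325901. Of all genes 3.28% passed with SB590885 and 0.592% with PD325901, so 0 of 13 is about the background share. EZR, which links CD44 to actin, was higher with SB590885 than with PD325901 by 0.31 (limma adjusted p = 0.0402). It was 1 of 13 called between the inhibitors, where 2.82% of all genes were. In the paired fit EZR and MSN, another such linker, were lower with PD325901 by -0.24 and -0.32 (adjusted p = 0.0146 and 0.00874). ESRP1, a regulator of CD44 splicing, was higher by 0.27 (adjusted p = 0.0137), at 7.39 against 7.12 with DMSO, not far above the median of all probe sets. The paired fit called 0 of 13 with SB590885, and 1 higher and 2 lower with PD325901, beside 18.9% and 8.14% of all genes.

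CD38 was high on 2 of the 12 arrays. Its probe set (205692_s_at) read 9.23, 10.95, 8.81 and 9.21 with DMSO, 8.95, 8.90, 8.72 and 8.86 with SB590885, and 9.55, 11.01, 8.90 and 9.37 with PD325901. The values of 10.95 and 11.01 are the 2 arrays on which the interferon response genes were also high. Array 2 of the SB590885 group had a CD38 of 8.90 and an interferon median of 7.80. The part of the interferon response in CD38 was not tested. With SB590885 the difference from DMSO was -0.69 (95% interval -1.72 to 0.34, limma adjusted p = 0.670), with pairs of -0.28, -2.05, -0.09 and -0.34. Between the inhibitors it was -0.85 (95% interval -1.88 to 0.18), which did not pass in the main fit (limma adjusted p = 0.535) and passed in the paired fit (adjusted p = 0.0240). The pairs were all negative, at -0.60, -2.11, -0.18 and -0.50. With array 2 of every group left out, the paired fit gave -0.43 between the inhibitors (adjusted p = 0.000759) and -0.23 against DMSO (adjusted p = 0.0403). This alternative was chosen after the values were seen. With PD325901 CD38 differed from DMSO by 0.16 (95% interval -0.87 to 1.19, limma adjusted p = 0.995).

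**Figure D4:**
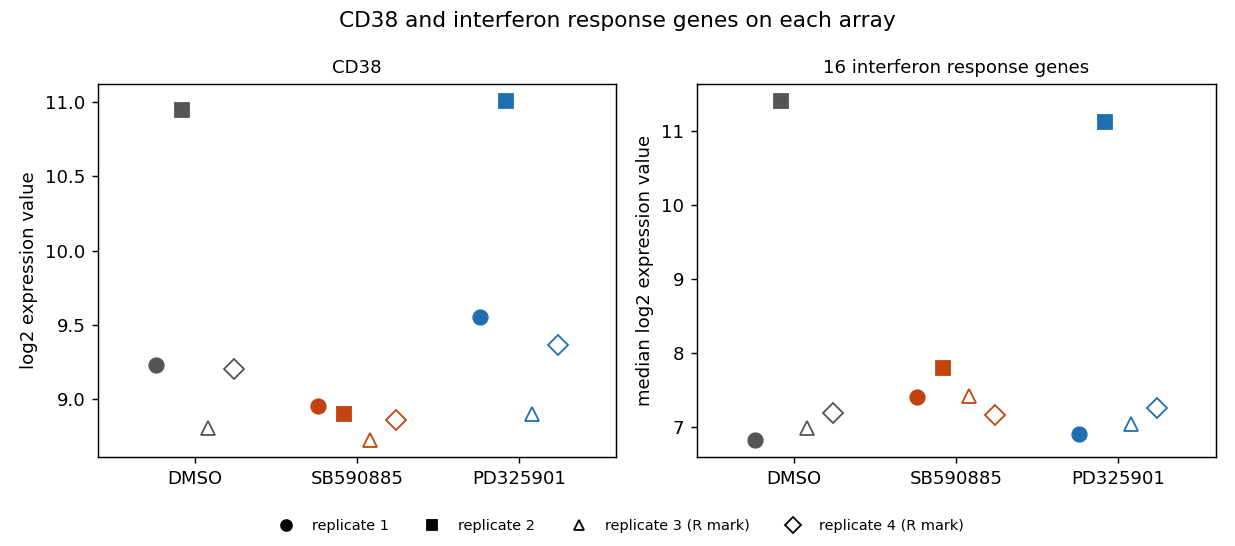
Log2 expression value of CD38 (left) and the median log2 value of 16 interferon response genes (right) on each of the 12 arrays, by group; marker shapes are replicates. Array 2 of DMSO and of PD325901 stand apart in both panels, with CD38 at 10.95 and 11.01, and the other 10 arrays have CD38 between 8.72 and 9.55.

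Of 12 measured genes of NAD and adenosine metabolism 0 passed in limma with either inhibitor, with medians of 0.02 and -0.02. Of all genes 3.28% passed with SB590885 and 0.592% with PD325901. The paired fit called 1 higher and 2 lower with SB590885 and 1 lower with PD325901, where it called 18.9% and 8.14% of all genes. In the paired fit SIRT1, an NAD-dependent deacetylase, was higher with SB590885 by 0.46 (adjusted p = 2.28e-05). ADA, which deaminates adenosine, was lower by -0.44 (adjusted p = 0.000187), and ENTPD1, which degrades extracellular ATP, by -0.28 (adjusted p = 0.00911). NAMPT, an enzyme of NAD salvage, was lower with PD325901 by -0.29 (adjusted p = 0.00923).

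GPRC5D, CD27, CD70 and CD28 stayed near the median of all probe sets. GPRC5D (221297_at) lay between 6.88 and 7.28, with means of 7.12 ± 0.13 (DMSO), 7.11 ± 0.12 (SB590885) and 7.05 ± 0.12 (PD325901; SD, n = 4). CD27 (206150_at) lay between 6.78 and 7.22, and CD70 (206508_at), its ligand, between 7.03 and 7.27. The 95% intervals of the differences from DMSO ran from -0.19 to 0.18 (SB590885) and -0.26 to 0.11 (PD325901) for GPRC5D. They ran from -0.16 to 0.26 and -0.10 to 0.31 for CD27, and from -0.14 to 0.16 and -0.10 to 0.20 for CD70. CD27 separated the marked arrays from the unmarked ones, at 7.12 ± 0.07 against 6.89 ± 0.06 (SD, n = 6), with no overlap between them. The share of all genes that separated in this way is not given here, so whether CD27 is unusual cannot be told. At signals this close to the floor, where the lowest probe sets read 5.85 to 6.01, a low mRNA and none cannot be told apart.

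The 3 CD28 probe sets lay between 6.36 and 6.70 on all arrays, below the median of all probe sets. The representing set (211856_x_at) gave differences of -0.04 with SB590885 and 0.04 with PD325901. Probe set 206545_at read 6.46, 6.42, 6.51 and 6.49 with DMSO, 6.36, 6.41, 6.47 and 6.48 with SB590885, and 6.52, 6.56, 6.70 and 6.57 with PD325901. Its difference between the inhibitors was -0.16, with no overlap (lower with SB590885, as were 2.20% of all probe sets). It did not pass in the main fit (limma adjusted p = 0.154) and passed in the paired fit (adjusted p = 0.0201).

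Of 10 measured partners of CD27, CD70 and CD28, 0 passed with SB590885 in limma, where 3.28% of all genes did. With PD325901 2 of 10 were called lower, where 0.506% of all genes were. VAV1, a signalling adaptor of lymphocytes, fell by 0.44 from 10.45 with DMSO (limma adjusted p = 0.0149), and the dim TRAF5 by 0.41 from 7.29. Both also passed for SB590885 in the paired fit, at -0.28 for VAV1 (adjusted p = 0.00528) and -0.31 for TRAF5 (adjusted p = 0.00249). Of 9 measured relatives of FCRL5 and GPRC5D, FCRL2 fell with SB590885 by 0.43 (limma adjusted p = 0.0324), and 3 of the 9 had a mean above the median of all probe sets. FCRL2 was dim, at 7.34 with DMSO and 6.90 with SB590885, near that median. It was 1 of 9, where 1.69% of all genes were called lower. With PD325901 FCRL2 was at -0.47 and passed in the paired fit alone (adjusted p = 0.00392).

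Syndecans and enzymes that build heparan sulfate, the sugar chain of SDC1, gave 0 calls among 20 measured genes with either inhibitor in limma. In the paired fit with SB590885 4 were higher and 2 lower, among them B3GALT6 at 0.48 (adjusted p = 2.28e-05) and EXTL2 at -0.54 (adjusted p = 0.000185). With PD325901 the paired fit called 0 of them. Of all genes the paired fit called 18.9% with SB590885 and 8.14% with PD325901, and the main fit 3.28% and 0.592%.

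Among 24 other measured surface antigens of plasma cells, CD48 and SLAMF7 fell with SB590885. CD48, a ligand of lymphocyte receptors, was at 11.82 with DMSO and fell by 1.52 with SB590885 (limma adjusted p = 0.0173) and by 1.97 with PD325901 (adjusted p = 0.00770). SLAMF7, the target of elotuzumab, was at 10.95 and fell by 0.90 with SB590885 (limma adjusted p = 0.0156). It was lower with SB590885 than with PD325901 by -1.01 (adjusted p = 0.00859). LY9, a receptor of the SLAM family, and SEMA4A, a semaphorin, each fell by 0.50 with PD325901 (limma adjusted p = 0.00294 and 0.00845). LY9 was dim, at 7.80 with DMSO and 7.31 with PD325901, whereas SEMA4A was at 10.26 with DMSO. TNFRSF10B, a death receptor for TRAIL, was higher with SB590885 than with PD325901 by 0.61 (limma adjusted p = 0.0291). In the main fit 2 of 24 fell with SB590885 and 3 of 24 with PD325901, and 0 rose with either. Of all genes 1.69% were called lower with SB590885 and 0.506% with PD325901 in that fit. The paired fit called 3 higher (CD59, TNFRSF10B and IGF1R) and 8 lower with SB590885, and 0 higher and 6 lower with PD325901. Of all genes it called 9.09% higher and 9.84% lower with SB590885, and 1.96% higher and 6.18% lower with PD325901. The list medians were -0.05 and -0.04, beside 0.0038 and -0.0029 over all genes.

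Of the plasma cell markers outside the 10 genes, XBP1 alone passed with SB590885 against DMSO in the main fit. XBP1, the transcription factor of the secretory programme, fell by 0.62 (limma adjusted p = 0.0317) and was lower than with PD325901 by -0.78 (adjusted p = 0.0113). MZB1, a chaperone of immunoglobulin assembly, was lower with SB590885 than with PD325901 by -0.61 (limma adjusted p = 0.00797). Its difference from DMSO with SB590885 was -0.30. That did not pass in the main fit (limma adjusted p = 0.160) and passed in the paired fit (adjusted p = 0.00575). Of the 9 plasma cell markers, which include SDC1, CD38 and TNFRSF17, 2 fell with SB590885 and 0 passed with PD325901 in the main fit. Of all genes 1.69% were called lower with SB590885 and 0.592% were called with PD325901 in that fit. The paired fit called 3 lower with SB590885, 2 higher (TNFRSF17 and MZB1, the latter at 0.31, adjusted p = 0.0105) and 1 lower (SDC1) with PD325901, and 6 lower with SB590885 than with PD325901. Of all genes the paired fit called 9.84% lower with SB590885, 1.96% higher and 6.18% lower with PD325901, and 5.73% lower between the inhibitors. The medians of the 9 markers were -0.19 and 0.16, and -0.24 between the inhibitors. The B cell marker PAX5 fell with SB590885 by 0.45 (limma adjusted p = 0.0195).

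Among markers of other cell types, TRAT1 and CD8A of the T cell list fell with SB590885, by 1.06 and 0.33 (limma adjusted p = 0.00961 and 0.0285). They were at 8.19 and 7.54 with DMSO. These were 2 of 8 genes, where 1.69% of all genes were called lower. The summed level of the 8 T cell markers was 56.6 to 58.0 with DMSO, 54.6 to 56.6 with SB590885 and 56.7 to 57.9 with PD325901. CD3D, CD3E and CD3G, the defining T cell genes, were at 6.89, 6.97 and 6.68 with DMSO, near the median of all probe sets. Of 4 measured monocyte markers and 6 stromal markers 0 passed in limma with either inhibitor, where 3.28% and 0.592% of all genes did.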

How the data were processed

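Per the labels, each treatment used 300000 INA-6 cells, and each array took 100 ng of total RNA. The deposited log2 values are RMA values, made by the authors in R 3.0.1 per the submitters' processing notes; RMA adjusts background, equalises the distributions of arrays and summarises probes, which can compress differences at low signal. Array medians were 6.88 to 6.97. All 12 arrays were used, and no value column was left unused. Of 54675 probe sets, 62 controls were left out; 41091 of the others had 1 symbol, 1801 several and 11721 none.

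Group means were fitted with limma 3.58.1 (R 4.3.3) over all 12 arrays, on 1 probe set per gene (the highest mean) for 19775 genes, and separately on all 54613 probe sets; Benjamini-Hochberg adjustment ran over all features, with calls at 0.05. The probe set was chosen without regard to group. The second fit added the replicate number: deviations of same-numbered arrays correlated at 0.544 to 0.913 over 12 pairs, and for 12 of 12 arrays the closest partner bore the same number. The number of arrays limits precision. The members, gene lists and tests were chosen with earlier results of these data known; motifs were chosen after the sequences were seen. Named genes are all members and, of each list, up to 4 called genes per comparison; genes passing in the paired fit alone, and markers and controls, are named as examples after their values were seen. Alternatives covered the block, the R mark, array scaling, the probe set choice, the variance trend and left-out arrays. The fits were tested on simulated data.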

Additional observations from a re-analysis of the deposited data

Results flagged for a closer look

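In groups of 4 arrays, 8 of 87 group values of the 29 probe sets held an array far from the other 3 by Dixon's criterion, where chance gives about 1 in 20 groups. Array 3 of the DMSO group was low on the FCRL5 probe sets 224404_s_at (8.89) and 224405_at (7.39). Array 4 was low on the CD44 probe set 217523_at in the DMSO group (7.14) and in the PD325901 group (6.87). The CD44 probe set 1557905_s_at was high on array 2 of SB590885 (10.2), and 216056_at was high on array 2 of DMSO (6.61). Among the dim CD28 probe sets, 211856_x_at was high on array 4 of SB590885 (6.65) and 211861_x_at was low on array 1 of SB590885 (6.36).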

How the results depend on the processing

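The replicate block raised the genes called among the 10 from 0 to 4 with PD325901 and from 2 to 4 between the inhibitors, and the probe sets called from 2 to 7 (SB590885), 6 to 12 (PD325901) and 8 to 14 (between the inhibitors); it ended no gene call of the 10. With PD325901 the R mark as a term gave 3 genes, the marked arrays alone 2 and quantile normalization 2. Between the inhibitors, centring arrays on their medians gave 1 gene and probe sets ending in plain _at gave 1. With SB590885, centring gave 1 gene (FCRL5) and 1 probe set, a variance trend 1 gene (FCRL5), and plain _at probe sets 0 genes. Without array 2 of every group, chosen after seeing the data, the genes called were 0 with SB590885 and 0 between the inhibitors. The probe sets called there were 0 in each of the 3 comparisons. With the block added, 3 genes passed with SB590885 (SDC1, FCRL5 and CD38), 3 with PD325901 and 4 between the inhibitors. Fewer arrays per group remain there; for the other shifts the cause was not tested. Leaving out single arrays gave 1 to 2, 0 to 0 and 0 to 2 genes, and 1 to 2, 3 to 6 and 6 to 8 probe sets, for SB590885, PD325901 and the inhibitors compared. Over all genes the calls ranged from 78 to 3742, 63 to 1610 and 180 to 3582.

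Signs that turned belonged to differences that did not pass. On unmarked arrays alone GPRC5D was 0.068 (SB590885), TNFRSF13B -0.0099 (PD325901; -0.0076 when centred) and CD70 0.039 (between the inhibitors). On marked arrays alone TNFRSF13B was 0.044 and CD70 -0.063 (SB590885), CD28 -0.0081 (PD325901), and SDC1 0.011 and TNFRSF13B 0.012 (between the inhibitors). With SB590885, CD70 was -0.012 when centred and -0.020 after quantile normalization, and CD44 was 0.046 after quantile normalization and 0.010 as a mean of probe sets. With plain _at probe sets SDC1 was 0.023 between the inhibitors. Without array 2 of every group, with or without the block, TNFRSF13B was 0.023 and CD70 -0.023 (SB590885), and TNFRSF13B 0.023 (between the inhibitors). Leaving out single arrays gave, with SB590885, -0.18 to 0.015 for TNFRSF17, -0.053 to 0.018 for TNFRSF13B, -0.0089 to 0.096 for CD27, -0.059 to 0.048 for GPRC5D, -0.18 to 0.089 for CD44 and -0.030 to 0.048 for CD70. With PD325901 it gave -0.27 to 0.63 for CD38 and -0.029 to 0.040 for TNFRSF13B, and between the inhibitors -0.067 to 0.0073 for TNFRSF13B.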
